A study of Mus musculus with 42 samples.

Results

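The subject is a set of 10 genes of the endoplasmic reticulum (ER), the chaperones and folding enzymes Hspa5, Hsp90b1, Calr, Pdia4 and Dnajc3, the transcription factor gene Xbp1, and its known targets or partners in the stress response Dnajb9, Sdf2l1, Herpud1 and Edem1. They were chosen by symbol, and all 10 were found among the 45317 genes of the RNA count table. The study treated bone marrow mesenchymal stromal cells (MSCs) of C57BL/6 mice, which can form fat, bone and cartilage, with nuclear receptor ligands for 48 h, with 6 RNA libraries per treatment. The groups were TBT (tributyltin, 50 nM), an organotin pollutant known to activate the retinoid X receptors (RXR) and PPARγ; 4204 (AGN194204, 100 nM), a synthetic RXR agonist; ROSI (rosiglitazone, 100 nM), a PPARγ agonist drug; and DMSO (0.1%), the solvent. The histone marks H3K4me3, found at active promoters, and H3K27me3, left by Polycomb repressors, were mapped in 4 TBT and 4 DMSO libraries each. All groups were wild-type cells bought from a supplier and passaged repeatedly before use, and the labels do not say whether libraries came from separate cultures or donors, so p-values measure the spread between these libraries, which may be technical.

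The ER folds secreted and membrane proteins, which in MSCs include large amounts of collagen. When unfolded proteins build up, 3 sensors act, of which IRE1 (gene Ern1) splices Xbp1 mRNA, ATF6 is cut into a transcription factor, and PERK (gene Eif2ak3) slows translation and raises ATF4. Spliced XBP1 and ATF6 raise chaperone and degradation genes through the ER stress response elements ERSE and ERSE-II in their promoters, while ATF4 acts on C/EBP-ATF elements (CARE) of amino acid and stress genes.

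The promoters are shown because these elements are the route by which the stress sensors are known to act on genes of these kinds. Each window is the 250 bases before the start site of the RefSeq gene model (GRCm38.p6), read 5′ to 3′ on the gene's strand, and capitals mark matches. The motifs searched, on both strands, were ERSE (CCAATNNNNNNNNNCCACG), ERSE-II (ATTGGNCCACG), CARE (TGATGCAA), the XBP1 element UPRE (TGACGTGG) and the direct repeat DR1 (AGGTCANAGGTCA) that PPARγ and RXR bind together. ERSE-II reads the first fixed part of ERSE on the other strand and shares its last fixed part, but no match of one overlapped a match of the other. The Herpud1 window (chr8:94386179-94386428, plus strand) held a CARE on its reverse strand starting 112 bases before the start site and an ERSE-II starting 52 bases before it. The Hspa5 window (chr2:34771840-34772089, plus strand) held 1 ERSE in the exact letters searched, starting 65 bases before the start site. Copies that differ from these letters were not searched for in any window. The Sdf2l1 window (chr16:17132384-17132633, minus strand) held none of the 5 motifs in these letters.
Herpud1: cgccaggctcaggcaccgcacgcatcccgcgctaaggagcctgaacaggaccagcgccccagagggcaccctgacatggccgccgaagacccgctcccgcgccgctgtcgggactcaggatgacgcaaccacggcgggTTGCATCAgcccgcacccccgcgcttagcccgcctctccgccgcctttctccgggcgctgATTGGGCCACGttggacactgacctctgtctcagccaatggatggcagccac
Hspa5: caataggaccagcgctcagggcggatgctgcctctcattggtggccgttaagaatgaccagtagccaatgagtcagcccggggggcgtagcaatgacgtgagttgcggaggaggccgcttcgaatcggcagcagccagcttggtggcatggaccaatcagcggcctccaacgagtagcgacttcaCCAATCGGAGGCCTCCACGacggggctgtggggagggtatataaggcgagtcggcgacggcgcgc
Sdf2l1: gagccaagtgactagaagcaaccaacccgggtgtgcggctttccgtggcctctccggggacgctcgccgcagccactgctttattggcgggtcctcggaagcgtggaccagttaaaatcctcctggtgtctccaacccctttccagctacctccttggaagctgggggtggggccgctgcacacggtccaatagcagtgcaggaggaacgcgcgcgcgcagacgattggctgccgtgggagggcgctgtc

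ERSE was found before 4 of the 10 members, against 0.113% of 32851 RefSeq promoters of the same length. The 5 matches, read in the motif's direction with its fixed letters in capitals, were as follows, with Hsp90b1 holding 2 of them, 212 and 107 bases before its start, Dnajc3 1 at 105 bases and Calr 1 at 162 bases.
Hspa5: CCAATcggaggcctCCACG
Hsp90b1: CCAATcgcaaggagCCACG
Hsp90b1: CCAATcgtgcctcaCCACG
Dnajc3: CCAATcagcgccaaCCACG
Calr: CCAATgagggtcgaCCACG
ERSE-II was found before Herpud1 and before 0.0304% of all promoters, and CARE before Herpud1 and before 0.791% of all promoters. UPRE (0.563% of all promoters) and DR1 (0.0335%) were found before 0 of 10 members. A match describes letters in this window and does not show binding. ERSE and ERSE-II were already known to act on chaperone and degradation genes of the ER, so the shares are descriptions and not a finding of these data.

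Gene counts ranged from 3801758 to 5347365 per RNA library. In TBT libraries the lowest, median and highest were 4023214, 4098292 and 5347365, against 4269329, 4453573 and 5087215 in DMSO libraries. All 10 members passed the filter on low counts, as did 12529 genes in all. TBT library 2 stood apart, as the deepest library and the one farthest from its own group. Calls of members that change without it are given beside their values. All 10 markers of stromal cells were above the filter (summed level 1709 to 1883 CPM, counts scaled to the library's total, in the single libraries). Of other cell types, 3 of 9 blood, 1 of 7 plasma cell, 2 of 6 endothelial, 0 of 7 adipocyte and 1 of 6 osteoblast markers passed it, and Adgre1, Igkc, Tnfrsf17 and Lep were at 0 in all 24 libraries. Summed markers of plasma cells, a cell type with an enlarged ER, were 125 to 158 CPM in TBT libraries and 141 to 152 CPM in DMSO libraries. As 1 of these 7 passed the filter, the sums rest mostly on that gene and say little of plasma cells. Summed endothelial markers were 6.05 to 8.46 CPM in TBT libraries, 5.63 to 8.48 CPM in 4204 libraries, 5.62 to 10.4 CPM in ROSI libraries and 10.1 to 16.2 CPM in DMSO libraries, with Emcn at 0 in all TBT and DMSO libraries. Summed adipocyte markers were 2.46 to 3.19 CPM in TBT libraries, 0.455 to 3.38 CPM in 4204 libraries, 0 to 1.80 CPM in ROSI libraries and 0 to 0.904 CPM in DMSO libraries, with Adipoq at 0 in all TBT, 4204 and ROSI libraries. The endothelial sums of TBT libraries lay below, and the adipocyte sums above, those of all DMSO libraries, and the part of either in the results was not tested. In bulk RNA, fewer cells of a type and less RNA per cell cannot be told apart.

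In TBT-treated cells 2 of the 10 members rose and 1 fell relative to DMSO, while the main chaperones did not pass the test. Herpud1, whose membrane protein takes part in ER-associated degradation (ERAD), was 30.8% higher. Xbp1 was 10.1% higher and Sdf2l1, which encodes an ER-resident partner of Hspa5 chaperone complexes, was 19.4% lower. These 3 of 10 compare with 28.9% of all 12529 genes called in this comparison (15% higher and 13.9% lower), so the members' share was near the background. Scaled to the ERCC spike-in RNA, the calls over all genes were 1802 higher and 293 lower, against 1878 higher and 1745 lower with the main scaling. The median over all genes was then 0.08 (log2), against -0.01, and 2 of the 3 member calls held under it. For every 100 reads given to genes, TBT libraries held between 0.326 (library 2) and 0.453 (library 6) spike-in reads. DMSO libraries held between 0.376 (library 2) and 0.502 (library 1), so the groups overlapped. The part of this spread in the values under spike-in scaling was not tested.

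Herpud1 lay at 121 CPM (lowest), 131 CPM (median) and 139 CPM (highest) in TBT libraries, against 95.4, 99.3 and 103 CPM in DMSO libraries. All 6 TBT libraries were above all 6 DMSO libraries, a separation that 6.73% of all genes showed in this direction. The log2 fold change was 0.39 ± 0.05 (SE), with adjusted p = 2.52e-08 in edgeR's quasi-likelihood test, and it was 0.41 without TBT library 2. Over the 19 alternatives its adjusted p stayed at or below 2.92e-05.

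Xbp1 had 97.8, 104 and 116 CPM (lowest, median and highest) in TBT libraries, against 89.3, 92.6 and 104 CPM in DMSO libraries. The groups overlapped, with 2 DMSO libraries inside the TBT range. The log2 fold change was 0.14 ± 0.05 (SE) at adjusted p = 0.0368 in edgeR's test. The call was lost without any of 7 single libraries, TBT 2 (adjusted p = 0.0528), TBT 5 (0.0584), TBT 6 (0.102), DMSO 1 (0.0665), DMSO 2 (0.0843), DMSO 4 (0.0934) or DMSO 6 (0.0686). Gene counts hold spliced and unspliced Xbp1 together, so the active form was not measured.

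Sdf2l1 had 24.1, 26.7 and 31.7 CPM (lowest, median and highest) in TBT libraries, against 30.5, 31.3 and 39.9 CPM in DMSO libraries. The groups overlapped through TBT library 4, the highest of its group, which left 4 DMSO libraries inside the TBT range. The highest DMSO values were in libraries 5 and 6. The log2 fold change was -0.31 ± 0.10 (SE) at adjusted p = 0.0176 in edgeR's test. The call was lost without DMSO 5 (adjusted p = 0.0514) or DMSO 6 (adjusted p = 0.0706), and under spike-in scaling (-0.22, adjusted p = 0.214).

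**Figure D1:**
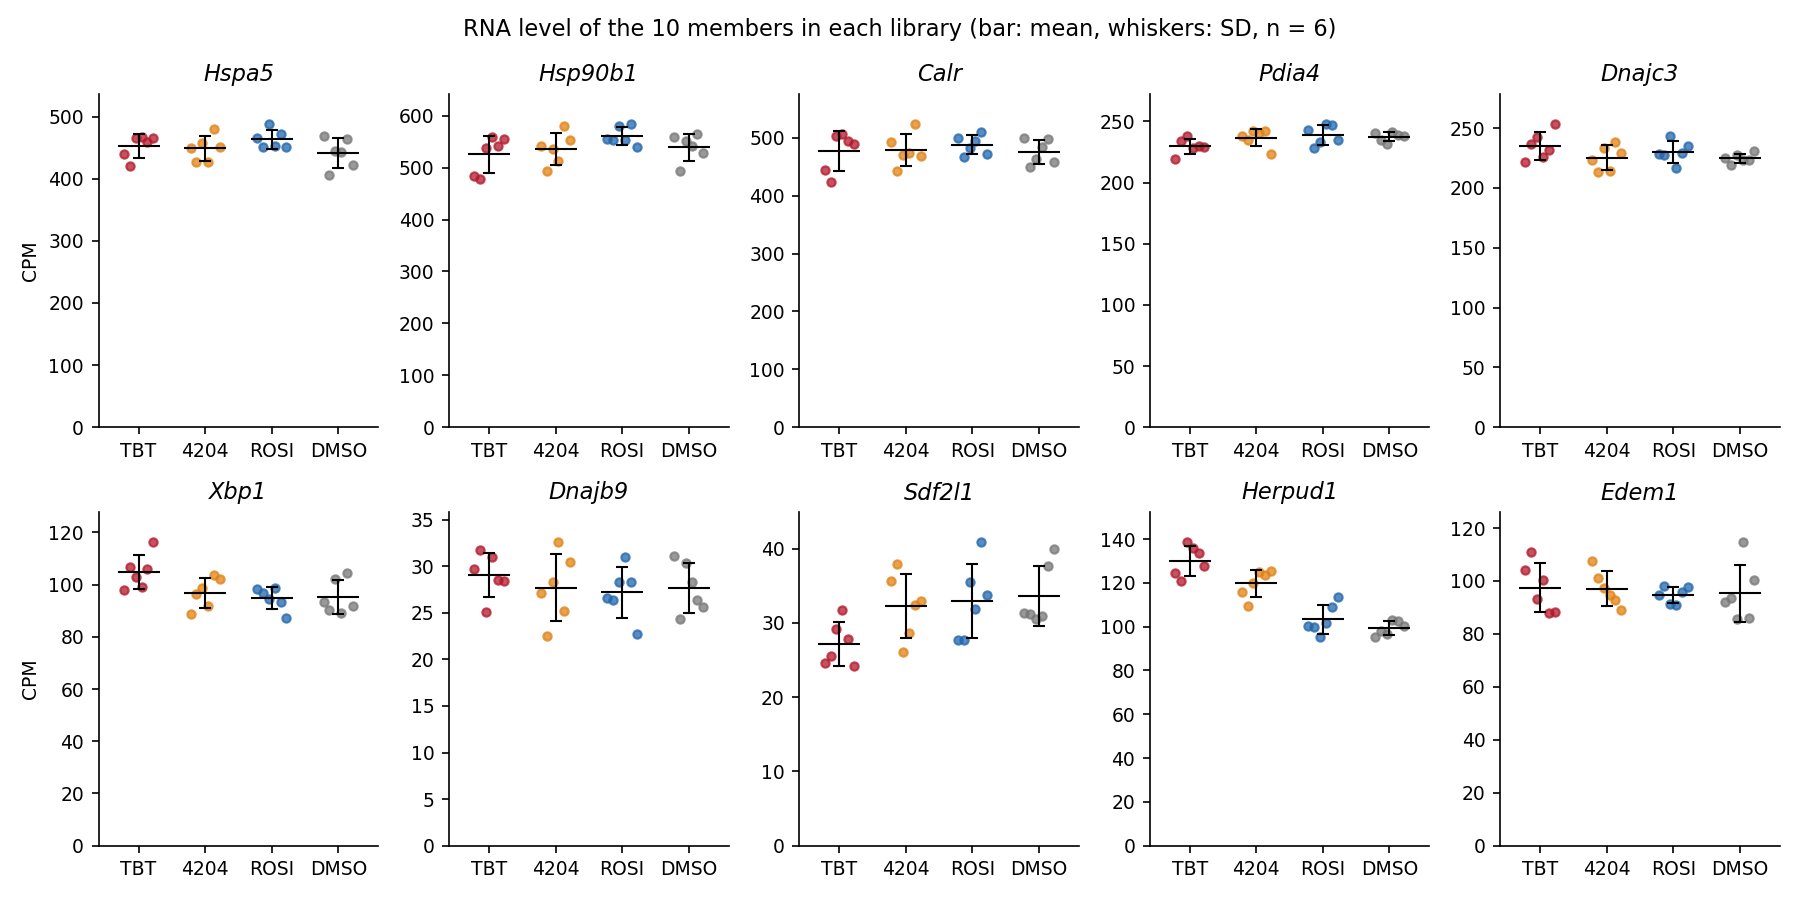
RNA level (CPM, vertical axis) of each member in the 24 libraries, by treatment, with points for libraries, a bar for the mean and whiskers for the SD (n = 6). Herpud1 separates TBT (mean 130 CPM) and 4204 (mean 120 CPM) from DMSO (mean 99.4 CPM), while the other panels overlap between treatments.

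The 5 chaperones and folding enzymes did not pass the test under TBT. Hspa5 encodes BiP, the main ER chaperone and the gatekeeper of the stress sensors. It averaged 453 ± 19.1 CPM in TBT libraries and 441 ± 24.2 CPM in DMSO libraries (SD, n = 6 each). Its log2 fold change was 0.038 in the main fit, with a 95% interval of -0.035 to 0.11. A rise of more than 8.08% lay outside that interval. Over the 19 alternatives Hspa5 ran from 0.014 to 0.13 (log2), past the upper end of that interval, and was called in 0 of them.

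Hsp90b1 encodes GRP94, the HSP90 of the ER, and Calr encodes calreticulin, a lectin chaperone that also stores calcium. Hsp90b1 averaged 526 ± 35.6 CPM in TBT libraries and 539 ± 26.2 CPM in DMSO libraries (log2 fold change -0.038, 95% interval -0.12 to 0.043). Calr averaged 477 ± 34.2 CPM in TBT libraries and 476 ± 21.0 CPM in DMSO libraries (log2 fold change 0.0025, 95% interval -0.080 to 0.085). The spread of both genes within a treatment followed library depth, as described with the depth values, and with log2 library size added to the fit, an alternative chosen after seeing the data, Hsp90b1 was lower under TBT (-0.066, adjusted p = 0.0101) and Calr stayed uncalled (-0.027).

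Pdia4 encodes a protein disulfide isomerase and Dnajc3 encodes p58IPK, a co-chaperone of BiP that also inhibits PERK. Pdia4 averaged 230 ± 6.11 CPM in TBT libraries and 237 ± 3.65 CPM in DMSO libraries (log2 fold change -0.048, 95% interval -0.11 to 0.017). Dnajc3 averaged 235 ± 11.6 CPM in TBT libraries and 225 ± 3.96 CPM in DMSO libraries, with a log2 fold change of 0.066 at adjusted p = 0.185 in edgeR's test.

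Dnajb9 and Edem1 are well-known XBP1 targets. Dnajb9 encodes ERdj4, a BiP co-chaperone that holds IRE1 inactive, and Edem1 encodes a lectin that hands misfolded glycoproteins to degradation. Dnajb9 averaged 29.1 ± 2.37 CPM in TBT libraries and 27.7 ± 2.69 CPM in DMSO libraries (log2 fold change 0.079, 95% interval -0.11 to 0.26). Edem1 averaged 97.4 ± 9.33 CPM in TBT libraries and 95.3 ± 10.9 CPM in DMSO libraries (log2 fold change 0.037, 95% interval -0.089 to 0.16). Its highest TBT value, 111 CPM, was in library 2, and without that library Edem1 was at -0.0087 (log2).

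Under 4204, Herpud1 was the only member that passed the test, 1 of 10 beside 24.1% of all genes. Its lowest, median and highest values were 109, 122 and 126 CPM in 4204 libraries, against 95.4, 99.3 and 103 CPM in DMSO libraries. All 6 treated libraries again lay above all 6 DMSO libraries, as for 6.9% of genes in this direction. The log2 fold change was 0.27 ± 0.05 (SE), adjusted p = 3.03e-05 in edgeR's test, and it passed the threshold in all 19 alternatives. The other 9 members lay between -0.056 and 0.027 (log2), with the smallest adjusted p at 0.669. Xbp1 averaged 96.9 ± 5.78 CPM in 4204 libraries against 95.2 ± 6.47 CPM in DMSO libraries, and Sdf2l1 averaged 32.3 ± 4.35 CPM in 4204 libraries against 33.6 ± 4.08 CPM in DMSO libraries. With spike-in scaling the calls over all genes were 908 higher and 300 lower, against 1600 higher and 1414 lower with the main scaling.

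Under ROSI 0 of the 10 members passed edgeR's test, 0 also at an unadjusted p under 0.05 and 0 with DESeq2, and 1.04% of all genes were called. Their log2 fold changes against DMSO ran between -0.033 (Sdf2l1) and 0.073 (Hspa5). Herpud1 had 95.4, 101 and 114 CPM (lowest, median and highest) in ROSI libraries, against 95.4, 99.3 and 103 CPM in DMSO libraries, and the difference of 0.056 (log2) had a 95% interval of -0.041 to 0.15. Hspa5 averaged 463 ± 15.1 CPM in ROSI libraries and 441 ± 24.2 CPM in DMSO libraries.

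**Figure D2:**
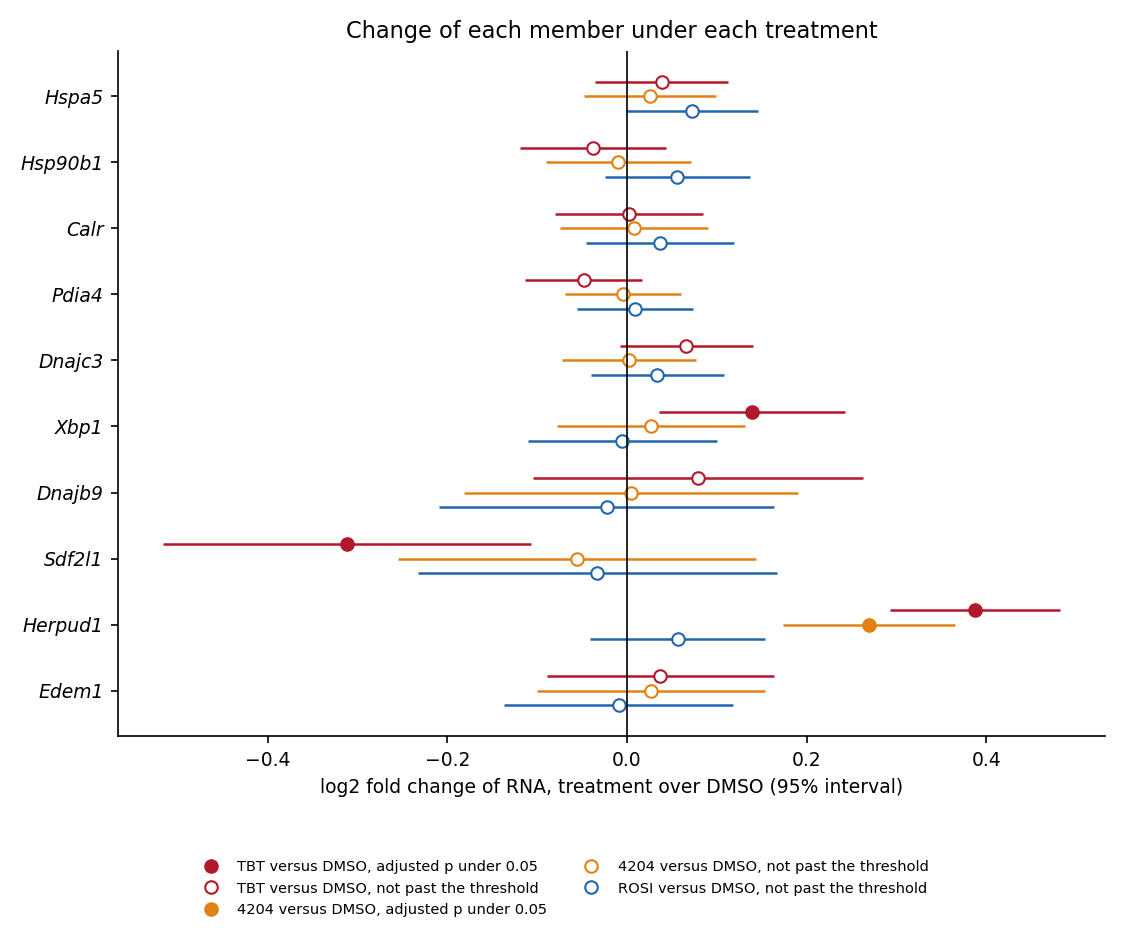
Log2 fold change over DMSO (horizontal axis) with 95% intervals for the 10 members under TBT, 4204 and ROSI, filled where adjusted p is under 0.05. Herpud1 is filled under TBT (0.39) and 4204 (0.27), Xbp1 (0.14) and Sdf2l1 (-0.31) under TBT, and no member under ROSI.

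Between TBT and 4204 no member differed past the threshold. Of the 10 members, 0 passed edgeR's test and 0 passed with DESeq2, and 0.846% of all genes were called. In edgeR's test 3 members had an unadjusted p under 0.05, as did 21 of the 138 genes of the 7 lists described below. The share of all genes at that unadjusted p was not counted. The 3 were Herpud1 (0.12, adjusted p = 0.305), Xbp1 (0.11, adjusted p = 0.426) and Sdf2l1 (-0.26, adjusted p = 0.326), and their 95% intervals of 0.025 to 0.21, 0.0088 to 0.22 and -0.46 to -0.049 leave room for differences of that size. The doses differ, 50 nM for TBT and 100 nM for 4204. So Xbp1 and Sdf2l1, called under TBT and not under 4204, were not shown to respond differently to the 2 compounds.

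Against ROSI, TBT libraries were higher at Herpud1 (0.33, adjusted p = 7.63e-07) and Xbp1 (0.14, adjusted p = 0.0316) and lower at Sdf2l1 (-0.28, adjusted p = 0.0369) in edgeR's test, 3 of 10 members beside 28.7% of all genes. For Herpud1 all 6 TBT libraries were above all 6 ROSI libraries, as for 6.78% of all genes in this direction. The Xbp1 call was lost without ROSI 5 (adjusted p = 0.0528), ROSI 6 (0.0870) or TBT 6 (0.0887). That of Sdf2l1 was lost without ROSI 3 (0.0803), ROSI 5 (0.137), ROSI 6 (0.0619), TBT 1 (0.0892), TBT 2 (0.0645) or TBT 6 (0.0796), and under spike-in scaling (-0.15, adjusted p = 0.409). Hsp90b1 (-0.094, adjusted p = 0.0758) passed without TBT 4 (0.0378) or TBT 6 (0.0441). With spike-in scaling the median over all genes was 0.13, and the calls over all genes were 2426 higher and 172 lower, against 1908 higher and 1690 lower with the main scaling.

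For 4204 against ROSI, both at 100 nM, Herpud1 alone passed, 1 of 10 members beside 24.7% of all genes. It averaged 120 ± 6.29 CPM in 4204 libraries and 103 ± 6.67 CPM in ROSI libraries (SD, n = 6 each), a log2 difference of 0.21 at adjusted p = 7.86e-04 in edgeR's test, although the groups overlapped. The calls over all genes were 1162 higher and 184 lower with spike-in scaling, against 1697 higher and 1400 lower with the main scaling. Herpud1 levels were thus ordered TBT, 4204, ROSI and DMSO, and the neighbours TBT and 4204, and ROSI and DMSO, did not differ past the threshold. These comparisons share libraries with those against DMSO and are not independent of them.

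Other genes of the same organelle were taken from lists, and their counts are set beside the share of all genes called, 15% higher and 13.9% lower under TBT and 12.8% higher and 11.3% lower under 4204. Among 23 other ER chaperones and folding enzymes, 5 rose and 2 fell under TBT, with a median log2 fold change of -0.0018, against -0.0060 for all genes. The oxidase Ero1l, which re-forms disulfide bonds through protein disulfide isomerases, was 33.3% higher (0.42, adjusted p = 1.79e-05 in edgeR's test). Txndc11 (0.31) and Txndc5 (0.14), both of the thioredoxin family, also rose, while Creld2 (-0.24) and the HSP70 family member Hspa13 (-0.21) fell. With spike-in scaling 5 were higher and 0 lower. Under 4204, 0 rose and 1 fell (Hspa13, -0.21), and no fall was called with spike-in scaling.

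Of the ERAD genes tested (19 of 20), 6 rose and 0 fell under TBT, with a median of 0.076 (log2). The ubiquitin ligase of the main ERAD complex, Syvn1 (0.28, adjusted p = 1.76e-04), and its channel partner Derl1 (0.24, adjusted p = 2.49e-05) were among them in edgeR's test. Under 4204, 5 rose and 0 fell, among them Syvn1 (0.26), Os9 (0.17) and Derl1 (0.13), and 1 of these rises was called with spike-in scaling. Herpud1 belongs to the same process, whereas Edem1, which delivers substrates to it, was at 0.037 under TBT and 0.027 under 4204 and was not called.

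Of the genes of translocation into the ER and early secretory transport, 31 of 32 were tested. Under TBT 9 rose and 0 fell, with a median of 0.073 (log2). They included the retrieval receptor Kdelr3 (0.28, adjusted p = 8.30e-05 in edgeR's test), the COPII coat subunit Sec24d (0.22) and the signal peptidase subunit Spcs3 (0.20). Under 4204, 4 rose and 0 fell, led by Kdelr3 (0.22), Kdelr1 (0.16) and Sec24d (0.12), and 2 rises were called with spike-in scaling.

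Among sensors, stress transcription factors and their proteases, 15 of 16 were tested and 2 rose under TBT and under 4204. Creb3l1, which encodes an ATF6-like factor that raises collagen genes in bone-forming cells, averaged 213 CPM in TBT libraries and 133 CPM in DMSO libraries (0.68 ± 0.05, adjusted p = 1.30e-13 in edgeR's test). It averaged 204 CPM in 4204 libraries (0.62 over DMSO). Wfs1, which encodes wolframin, an ER membrane protein tied to calcium and stress control, was at 0.40 under TBT and 0.45 under 4204.

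The 3 stress sensors themselves, singled out after their values were seen, did not pass the test under TBT. Eif2ak3 was at 0.23 (adjusted p = 0.0600 in edgeR's test), Atf6 at -0.12 (adjusted p = 0.122) and Ern1 at -0.08 (adjusted p = 0.655). Under 4204, Atf6 was lower (-0.18, adjusted p = 0.0221), a call that spike-in scaling removed.

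In the PERK and ATF4 branch 13 of 16 genes rose and 1 fell under TBT, with a median of 0.37 (log2), against -0.0060 for all genes. The pseudokinase gene Trib3 averaged 88.9 CPM in TBT libraries and 52.4 CPM in DMSO libraries (0.76 ± 0.07, adjusted p = 9.20e-12 in edgeR's test). Chac1, which degrades glutathione, was 44.2% higher (0.53), and Ppp1r15a, which encodes the GADD34 phosphatase subunit that ends PERK signalling, was 43.1% higher (0.52). Psat1 of serine synthesis was lower (-0.11), a call that spike-in scaling removed. Under 4204, 8 of 16 rose and 1 fell (Psat1, -0.15, also lost with spike-in scaling), led by Nupr1 (0.49), Chac1 (0.38) and Sesn2 (0.50). Between TBT and 4204, Trib3 (0.34, adjusted p = 0.00237) and Asns, asparagine synthetase (0.16, adjusted p = 0.0155), were the 2 genes higher with TBT in edgeR's test, beside 0.407% of all genes. The count was 1 with spike-in scaling, 1 with these 2 groups alone and 4 with no filter on low counts. Earlier results of these data already showed stress genes of this branch higher under TBT, so the count is no independent support. The branch is the name of the list, and whether PERK had a part in these values was not tested.

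Genes of collagen modification and folding in the ER, not all of them enzymes, formed the other list with most genes higher. Under TBT 13 of 18 rose and 0 fell, with a median of 0.19 (log2), and 13 were also called with spike-in scaling. The prolyl 3-hydroxylase family genes P3h1 (0.44, adjusted p = 2.82e-08 in edgeR's test) and P3h3 (0.44) and the prolyl isomerase gene Fkbp10 (0.29) led it. Under 4204, 11 rose and 0 fell, among them P3h3 (0.32), P3h1 (0.28) and the lysyl hydroxylase gene Plod1 (0.26), and 3 rises were called with spike-in scaling. Sec24d, a coat subunit gene and not an enzyme, belongs to this list and to the transport list and counts among the rises of both. The lists were chosen with earlier results of these data known, so the counts of collagen folding are no independent support.

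Outside the ER, 17 of 18 cytosolic and mitochondrial heat shock chaperones were tested. Under TBT 3 rose and 5 fell, with a median of -0.0089 (log2). Bag3 (0.29), Dnajb4 (0.23) and Hspb8 (0.15) rose, and Hsph1 (-0.25), Hspa4 (-0.15) and the mitochondrial Hspd1 (-0.15) were the falls with the smallest adjusted p in edgeR's test. Under 4204, 2 rose (Bag3, 0.25, and Dnajb4, 0.18) and 4 fell, among them Hsph1 (-0.14). With spike-in scaling 0 of these falls were called under either compound.

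Under ROSI 0 of the 138 genes of these 7 lists passed edgeR's test, and 0 passed with spike-in scaling or DESeq2. An unadjusted p under 0.05 in edgeR's test was found for 15 of them, and the share of all genes with it was not counted. Without DMSO 3, 1 gene of collagen folding was higher. Between TBT and 4204, 0 genes of the other 6 lists passed edgeR's test or DESeq2, 3 did with library size as a covariate, 3 without TBT 2 and 1 without 4204 library 4.

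**Figure D3:**
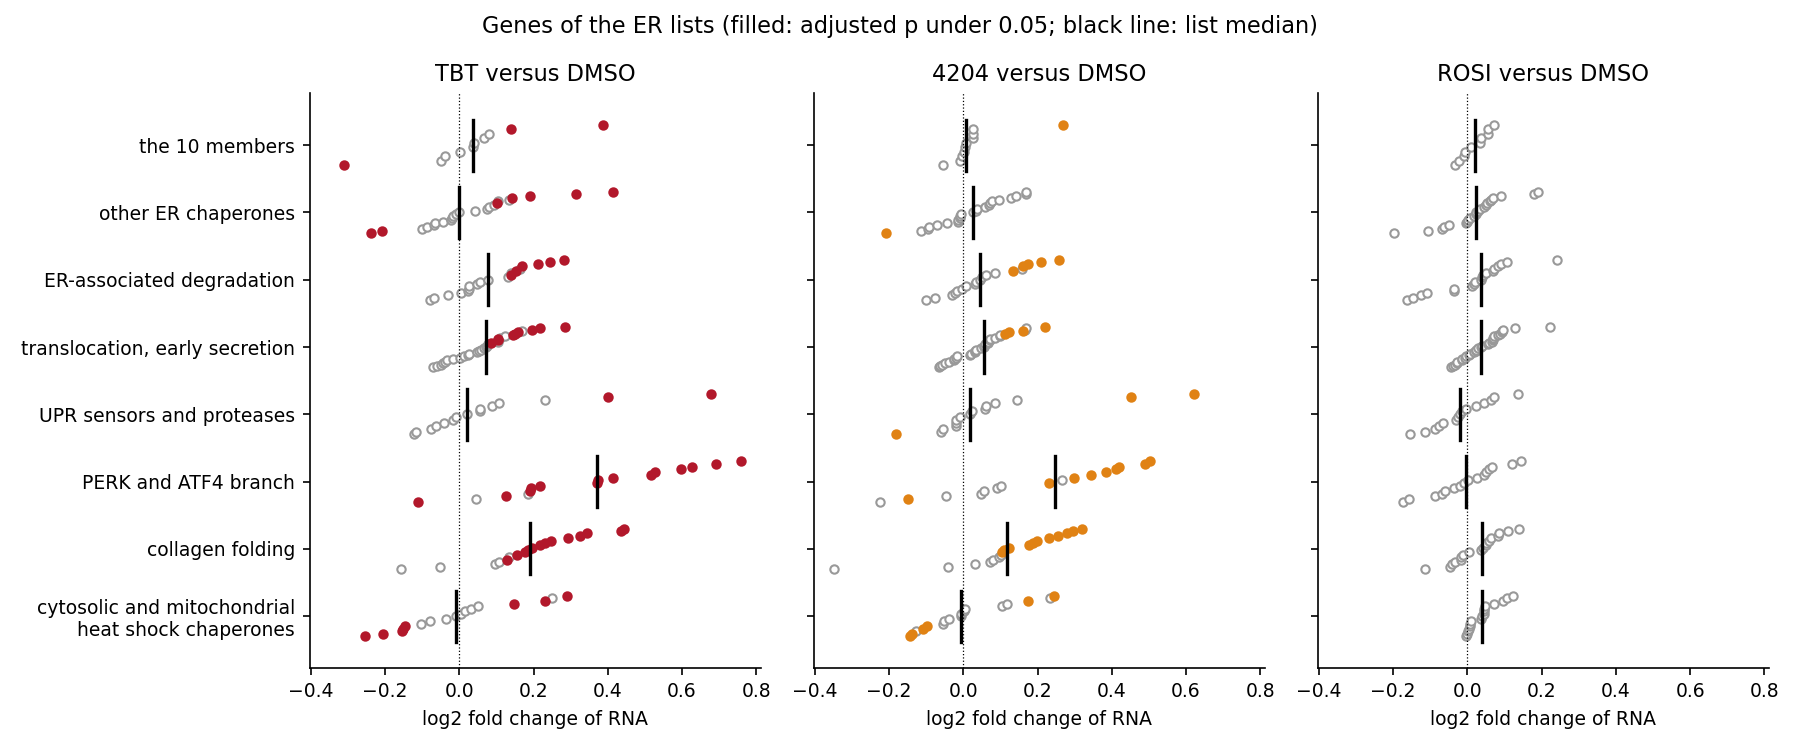
Log2 fold change over DMSO (horizontal axis) of each tested gene in 8 gene lists under TBT, 4204 and ROSI, filled where adjusted p is under 0.05, with a black line at the list's median. The medians of the PERK and ATF4 branch (0.37 under TBT, 0.25 under 4204) and of collagen folding (0.19 and 0.12) lie to the right of that of the 10 members (0.038 and 0.0062), and no gene is filled under ROSI.

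Genes that carry an ERSE in the same window were also looked at outside the members. There were 31 such genes, of which 23 were in the count table and 10 passed the filter. Under TBT 2 rose (Syvn1, 0.28, and Acacb, 0.29) and 1 fell (Creld2, -0.24), beside 15% of all genes higher and 13.9% lower. Under 4204 1 rose (Syvn1, 0.26), beside 12.8% of all genes higher. Under ROSI 0 passed edgeR's test, beside 1.04% of all genes. Syvn1 and Creld2 also count in the lists above. The 4 members with an ERSE, Hspa5, Hsp90b1, Dnajc3 and Calr, were not called under any of the 3 treatments against DMSO.

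Within treatments, the members did not vary as 1 block. Over the 24 libraries, after the mean of each treatment was taken off log2 CPM, Hspa5 and Hsp90b1 had Pearson's r = 0.90, Hspa5 and Calr 0.81, and Hsp90b1 and Calr 0.87. Herpud1 had 0.21 with Hspa5 and -0.14 with Xbp1, and Edem1 had -0.65 with Xbp1. These points share library depth and scaling, and the values are descriptions.

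The 3 chaperones that varied together also followed depth. The within-treatment deviations had r = -0.88 (Hspa5), -0.94 (Hsp90b1) and -0.95 (Calr) with log2 gene counts per library, against -0.42 for Herpud1 and 0.47 for Edem1. On the log scale, their counts grew with depth at slopes of 0.57 (Hspa5), 0.45 (Hsp90b1) and 0.43 (Calr), where 1 is proportional growth, 1.05 is the median of all genes and 0.95 that of the tenth with the highest counts. Xbp1 had 0.85, Herpud1 0.78, Sdf2l1 0.66 and Edem1 1.49. The part of depth in the values of these members was not tested beyond the fit with library size.

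**Figure D4:**
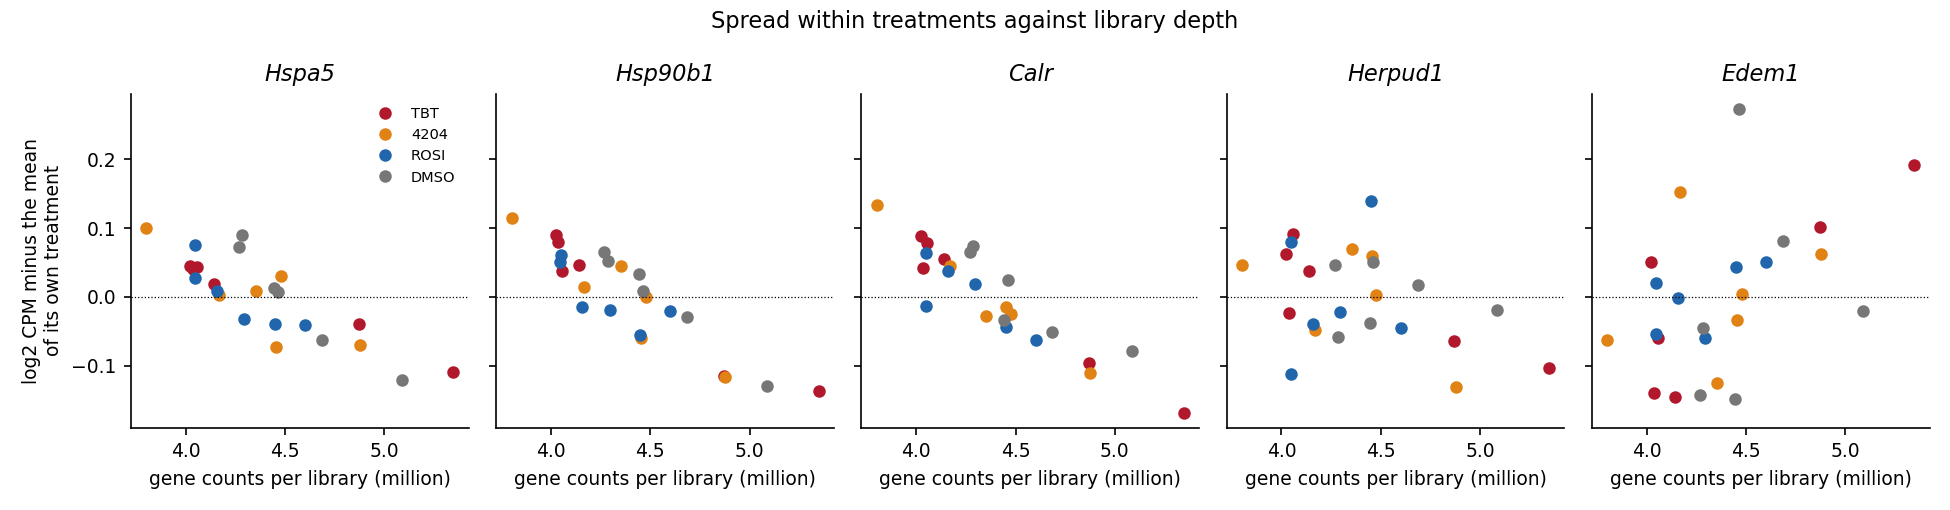
Deviation of log2 CPM from the mean of its own treatment (vertical axis) against gene counts per library (horizontal axis) for 5 members, with 1 point per library coloured by treatment. The points of Hspa5, Hsp90b1 and Calr fall with depth (r = -0.88, -0.94 and -0.95), those of Herpud1 less closely (r = -0.42), and those of Edem1 lie higher in deeper libraries (r = 0.47).

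The genes most like Hspa5 in this spread, by r over 24 libraries among 9213 genes that averaged at least 4 log2 CPM, were Ywhae (0.94), Set (0.92), Rps2 (0.92), Npm1 (0.91) and mt-Nd4 (0.91). All 5 also followed depth, with r between -0.98 and -0.92. Hsp90b1 ranked 13, Calr 200, Dnajc3 1375 and Edem1 7995 among them.

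At the promoters, H3K4me3 covered the start site of all 10 members in all 8 libraries. Regions with an island in all 8 libraries also covered 90.1% of the start sites of all tested genes, so the members were near the background. Reads were summed over regions of joined islands, 5400 to 21800 bp wide. Between TBT and DMSO 0 of the 10 members passed edgeR's test, and 0.164% of 12813 regions were called (14 higher and 7 lower). For 1 member the unadjusted p was under 0.05, and the share of all regions with such a p was not counted. The log2 differences lay between -0.13 (Sdf2l1) and 0.15 (Dnajb9), with a median of 0.03, against -0.001 over all regions. The fit had a biological coefficient of variation of 9.75%. Reads were counted only inside islands that the authors called in each library separately, so the sums move with the length called, which is given with the mean per kilobase (CPM per kb) for the members described.

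At Herpud1 (chr8:94382601-94399800) the H3K4me3 level was 153, 158, 170 and 181 CPM in TBT libraries and 144, 150, 162 and 166 CPM in DMSO libraries, each set sorted. The groups overlapped, and the log2 difference was 0.094 with a 95% interval of -0.044 to 0.23. The islands covered 6000 to 16000 bp in TBT libraries and 5400 to 8200 bp in DMSO libraries, and the mean per covered length was 18.5 CPM per kb in TBT libraries and 24.8 CPM per kb in DMSO libraries, the other direction. At Xbp1 (chr11:5519001-5525800) it averaged 106 ± 3.24 CPM in TBT libraries and 98.9 ± 3.53 CPM in DMSO libraries (SD, n = 4 each), a difference of 0.095 with an interval of -0.015 to 0.21. There the islands covered a mean of 5400 bp in TBT libraries and 4700 bp in DMSO libraries, at 19.8 CPM per kb in TBT libraries and 21.1 CPM per kb in DMSO libraries.

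At Sdf2l1 (chr16:17129801-17135200) the mark was at 45.6, 46.7, 47.4 and 47.4 CPM in TBT libraries and at 46.0, 50.0, 52.3 and 56.1 CPM in DMSO libraries. The difference of -0.13 had a 95% interval of -0.30 to 0.048. Its islands were 2000 to 2600 bp long in TBT libraries and 2800 to 4000 bp in DMSO libraries, at 20.5 CPM per kb in TBT libraries and 15.2 CPM per kb in DMSO libraries. Dnajb9 had 74.8 to 79.8 CPM in TBT libraries and 65.8 to 74.4 CPM in DMSO libraries, which do not overlap, as 2.5% of regions did in this direction, and its adjusted p was 0.516. The islands of Dnajb9 covered 3000 to 4400 bp in TBT libraries and 1800 to 3000 bp in DMSO libraries, with 22.1 CPM per kb in TBT libraries and 30.4 CPM per kb in DMSO libraries. For these 4 members the sum and the mean per covered length thus pointed opposite ways. The same held at Hspa5, Hsp90b1, Dnajc3, Calr and Edem1, so it was not particular to these 4. At Calr, however, the 2 measures cover different reads. The mean per covered length took only the island over the start site, which held all reads of the region in 0 of 4 TBT and 1 of 4 DMSO libraries. At Pdia4 both were higher in TBT libraries. The part of the called length in the sums was not tested. The regions of Calr and Edem1 also hold the start sites of 1700122E12Rik and Gm35417, whose reads cannot be separated.

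**Figure D5:**
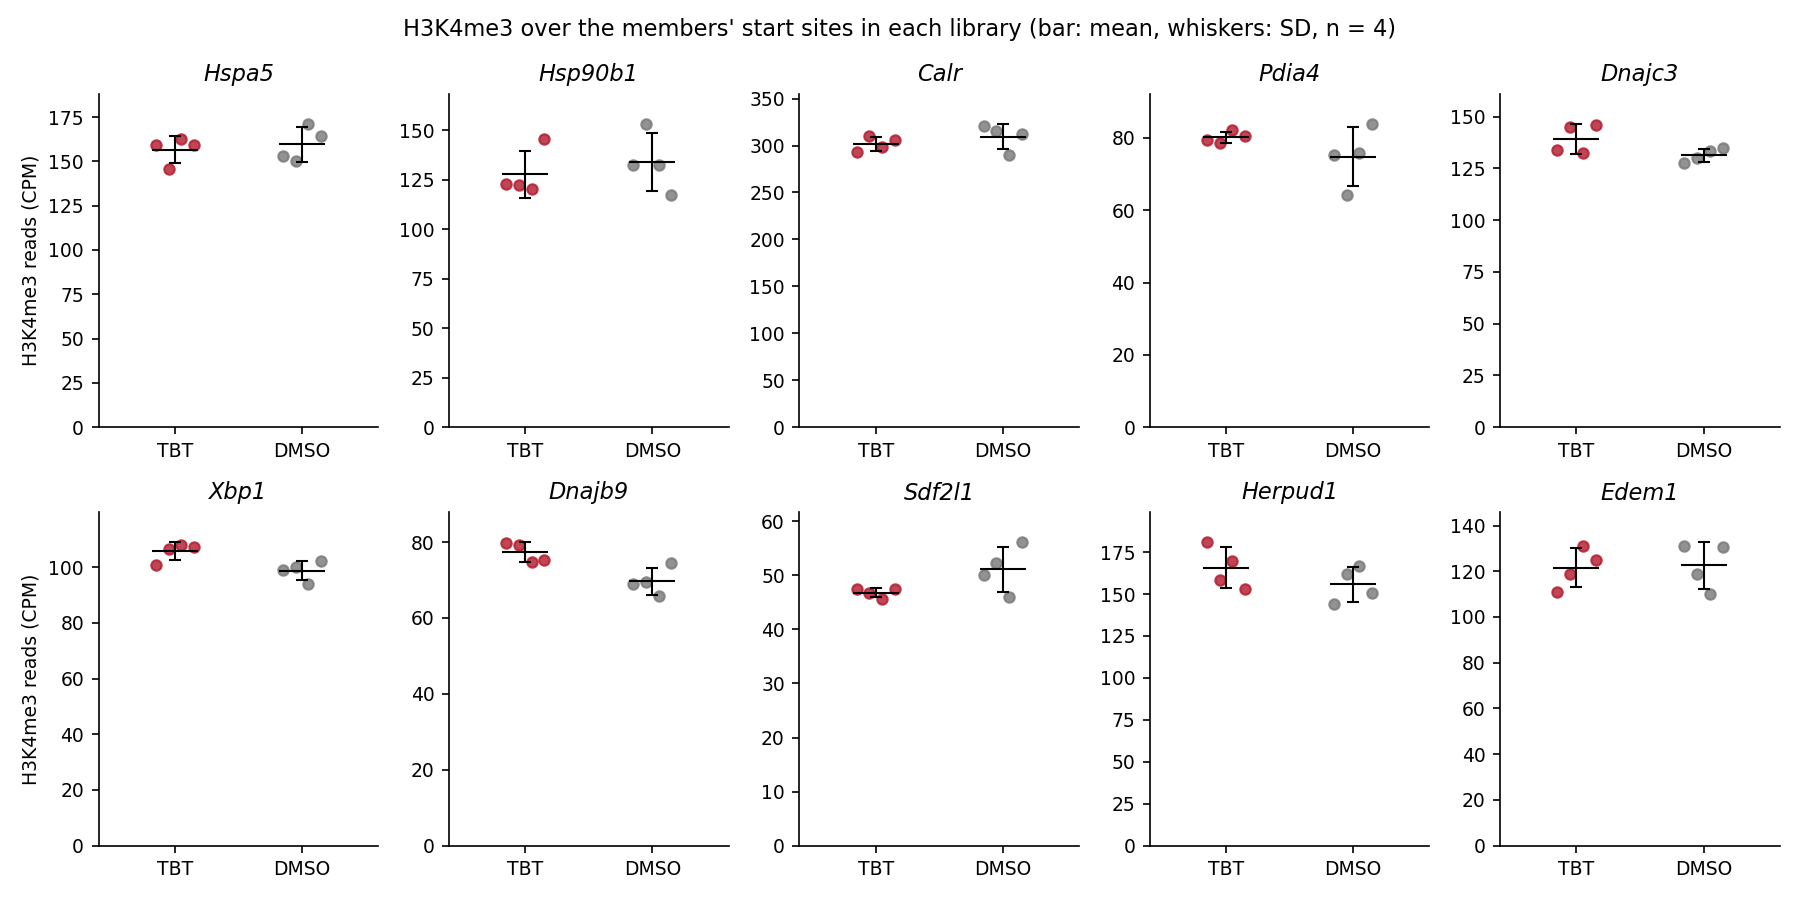
H3K4me3 reads (CPM, vertical axis) in the region over each member's start site in 4 TBT and 4 DMSO libraries, with points for libraries, a bar for the mean and whiskers for the SD. Herpud1 averages 166 CPM with TBT and 156 CPM with DMSO, and the largest log2 difference among the 10, at Dnajb9, is 0.15.

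H3K27me3 islands were absent over the start sites of 9 members in all 8 libraries. At Herpud1 an island was called in 1 of 4 TBT libraries and 0 of 4 DMSO libraries, where the authors' scaled fold over input was 1.23, with 525 ChIP and 600 input reads. The authors' deposited tables of differential peaks list 246 H3K4me3 and 4329 H3K27me3 peaks, and 0 of either lay within 20 kb of a member's start site. The shares of all start sites without an H3K27me3 island, or without such a peak nearby, were not counted. These absences are therefore descriptions and are not set against a background.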

How the data were processed

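RNA was measured in 24 libraries, and H3K4me3 and H3K27me3 in 16 ChIP libraries. The authors deposited raw read counts per gene. Builds GRCm38 and mm10, and the tools FastQC, STAR, SAMtools and DESeq2, appear in the submitters' processing notes. The counter and its strand setting: not given in the sources used here. Reads shared with overlapping genes (Rabepk at Hspa5, Gm4678 at Dnajc3, Mir704 at Pdia4, Gm35417 at Edem1) are uncertain. The 5 entries for reads given to no gene (reads outside genes alone were 20.9% to 24.3%) and 92 ERCC entries stayed out of library sizes.

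Counts were tested with edgeR 4.0.16 in R 4.3.3 (TMM, filterByExpr, quasi-likelihood F test, Benjamini-Hochberg, threshold 0.05) in 1 fit of all 24 libraries, with a biological coefficient of variation of 5.24%; DESeq2 1.42.0 was an alternative. CPM are TMM-scaled. The tests were checked on simulated data. No pair of libraries in a group agreed within sampling noise (60 pairs). Intervals are at 95%.

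For ChIP the authors deposited counts of ChIP reads per island, called per library (SICER and DiffBind, per the submitters' processing notes). Per the file headers, the same files give a fold over input, and the deposited differential peak tables give a log2 fold (DMSO minus TBT) and a p-value as an FDR. Islands of the 8 H3K4me3 libraries were joined, and their reads were summed and tested in regions with an island in all 8, so the called length affects the sums.

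Deposited coordinates are mm10; start sites come from RefSeq GRCm38.p6, and 90.1% of the start sites of tested genes lay in such a region. Members and lists were chosen with earlier results of these data known. All members are named; per list, the 3 smallest adjusted p in each direction under TBT and 4204, except a result that is not reported here. Alternatives were other scalings, no filter, 2 groups only, a replicate block and leaving out each library; library size as a covariate was added after seeing the data.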

Additional observations from a re-analysis of the deposited data

Results flagged for a closer look

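H3K4me3 over the Hsp90b1 start site was 145 CPM in TBT library 4, far from the other 3 TBT libraries at 120 to 123 CPM. The gap to the nearest library was 0.89 of the group's range. Without this library the log2 difference between TBT and DMSO at Hsp90b1 was -0.14, against -0.07 with it, and neither passed the threshold. It was the only value to stand apart in this way among 40 groups of RNA values and 20 groups of H3K4me3 values, where chance gives about 1 in 20 groups.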

How the results depend on the processing

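Herpud1 kept its calls under TBT and 4204, against DMSO and against ROSI, in all alternatives run, and DESeq2 and RLE scaling changed no call of a member. Xbp1 lost its call with TBT and DMSO libraries alone (adjusted p = 0.0625) and with no filter on low counts (0.0728 against DMSO, 0.0569 against ROSI). Scaling to spike-in RNA turned the uncalled Hsp90b1 to 0.048 and Pdia4 to 0.041 under TBT against DMSO, and Hsp90b1 to 0.029 against ROSI. With library size as a covariate Calr was at -0.027 under TBT, Hsp90b1 was also lower than under ROSI (-0.07, adjusted p = 0.0062), and Sdf2l1 was not called against ROSI (adjusted p = 0.0533). With spike-in scaling 0 falls were called in the lists of other ER chaperones, sensors, the PERK and ATF4 branch and heat shock chaperones, under TBT or 4204. Under 4204 the rises then called were 1 of ER-associated degradation, 2 of transport, 3 of collagen folding and 1 of heat shock chaperones. With no filter 3 rises of ER-associated degradation and 2 falls of heat shock chaperones were called under 4204. With library size as a covariate 1 gene of ER-associated degradation fell under each of TBT and 4204. The causes were not tested.

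Leaving out single libraries gave 1 to 3 members called for TBT against DMSO (1 without DMSO 6) and 1 to 4 for TBT against ROSI (1 without ROSI 5 or 6). Uncalled members crossed 0 in such fits, with Calr from -0.015 to 0.033 and Edem1 from -0.0087 to 0.094 under TBT, Edem1 from -0.0064 to 0.082 and Sdf2l1 from -0.12 to 0.0039 under 4204, Sdf2l1 from -0.10 to 0.024 under ROSI, and, for H3K4me3, Hspa5 from -0.053 to 0.0096 and Edem1 from -0.064 to 0.029. Falls in the lists ranged under TBT from 1 to 2 (other ER chaperones) and 0 to 1 (sensors). Under 4204 they ranged from 0 to 1 (other ER chaperones, ER-associated degradation and sensors) and 2 to 5 (heat shock chaperones), and rises from 0 to 1 (other ER chaperones), 3 to 5 (ER-associated degradation) and 1 to 3 (heat shock chaperones).

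Replicate numbers paired the samples weakly at most, and weak pairing was not excluded. Same-numbered RNA libraries had correlations of -0.05 to 0.12, with means of 0.0015 to 0.050 over the 6 pairs of groups. At most 2 of 6 libraries were closest to their own number in any of these pairs. Same-numbered H3K4me3 libraries had 0.002 to 0.08, with 2 of 4 closest to their own number. With a replicate block Hsp90b1 was lower in TBT than ROSI libraries (-0.09, adjusted p = 0.0210), 1 gene rose in the list of other ER chaperones under 4204, and no other call counted here moved by over 1.5 times. For H3K4me3 0 members were called in any alternative. Depth limits Dnajb9 and Sdf2l1 most, the members with the fewest counts, at means of 122 and 138 per library.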
